A study of Homo sapiens with 52 samples.

Results

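GDF15, STC1, STC2 and FGF21 encode secreted hormones that stressed cells release, and these 4 genes, chosen by symbol, were followed among the 59408 genes of each deposited table. Of the 4, GDF15, STC1 and STC2 passed the filter on low values (a mean of at least 10 normalised counts over the 26 groups), which left 15479 genes to test. FGF21 did not pass it. The samples were WI-38 cells, a strain of normal human lung fibroblasts with a finite number of divisions, and mRNA was sequenced in bulk. Cells were exposed for 24 h to 0.009% SDS, a detergent that wounds the plasma membrane, to 75 mM KCl, which lets calcium into the cell, or to 250 nM doxorubicin (DXR), which breaks DNA. The senescent cells that arise are called PMD-Sen after SDS, Ca2+-Sen after KCl and DDR-Sen after DXR. Each course was sampled daily from day 0, the end of the exposure, to day 4, and again on days 6, 8 and 16. Replicative senescence (RS) was reached by passaging to a population doubling level of 52, and the untreated cells had passed 32 to 46 doublings. Every group had 2 libraries, and the same 2 untreated libraries served all 25 comparisons, also those of late days. The study's methods call the samples of a group independent, but neither they nor the labels say whether these were separate cultures, and the p-values measure the spread between these libraries.

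GDF15 is a distant member of the TGF-beta family that lowers appetite through its brain receptor GFRAL and the co-receptor RET. Its gene is a known target of p53 and of ATF4 and DDIT3 (CHOP), the transcription factors of the integrated stress response, in which phosphorylation of the initiation factor eIF2 slows translation. STC1 and STC2 are paralogous glycoproteins that inhibit the proteases PAPPA and PAPPA2, which cut IGF-binding proteins and free IGF. STC2 is known as a target of the PERK and ATF4 arm of the unfolded protein response, and STC1 as a target of the hypoxia factor HIF-1. FGF21 is mainly a liver hormone, induced through ATF4, and signals through FGF receptors with the co-receptor KLB.

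In GRCh38 with the GENCODE 29 annotation, GDF15 (ENSG00000130513.6) lies at chr19:18374731-18389176 on the plus strand, STC2 (ENSG00000113739.10) at chr5:173314713-173329503 on the minus strand and FGF21 (ENSG00000105550.9) at chr19:48755559-48758333 on the plus strand. The microRNA gene MIR3189 lies inside GDF15 on the same strand. Promoters, taken from RefSeq (GRCh38.p14) as the 250 bases before and 50 after each RefSeq start site, are shown for these 3 genes because GDF15 and STC2 were called higher on SDS day 0, and FGF21 had its few reads on that day and on KCl day 0. They were searched on both strands for 6 motifs of the pathways examined further on, and capitals mark a match. The windows are chr19:18385908-18386207 on the plus strand, chr5:173328365-173328664 on the minus strand and chr19:48755274-48755573 on the plus strand.
GDF15 promoter: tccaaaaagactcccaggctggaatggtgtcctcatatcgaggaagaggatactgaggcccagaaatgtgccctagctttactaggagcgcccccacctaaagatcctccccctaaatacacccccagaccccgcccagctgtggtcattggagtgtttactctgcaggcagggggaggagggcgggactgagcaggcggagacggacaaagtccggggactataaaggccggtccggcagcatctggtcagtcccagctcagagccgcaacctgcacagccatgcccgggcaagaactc
STC2 promoter: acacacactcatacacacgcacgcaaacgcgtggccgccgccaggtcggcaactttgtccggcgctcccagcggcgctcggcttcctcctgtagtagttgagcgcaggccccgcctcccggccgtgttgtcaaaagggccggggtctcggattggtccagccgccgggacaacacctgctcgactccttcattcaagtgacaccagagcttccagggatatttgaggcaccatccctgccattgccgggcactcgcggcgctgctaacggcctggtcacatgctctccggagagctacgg
FGF21 promoter: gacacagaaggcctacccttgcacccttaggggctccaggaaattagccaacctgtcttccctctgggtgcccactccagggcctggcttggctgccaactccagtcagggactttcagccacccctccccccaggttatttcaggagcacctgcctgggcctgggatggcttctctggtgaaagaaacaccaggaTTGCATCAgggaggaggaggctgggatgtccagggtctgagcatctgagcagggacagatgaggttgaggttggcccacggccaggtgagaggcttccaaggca
The FGF21 window held 1 match, 54 to 47 bases before the start, to the core of the C/EBP-ATF response element (TGATGNAA) on the minus strand, and 3.62% of 35116 RefSeq promoters hold that core. No match was found in the GDF15 and STC2 windows. Both of these windows lie inside the GENCODE spans given above, so the sequence before the GENCODE starts of these genes was not searched. The other motifs were the hypoxia response core ACGTG (21.4% of promoters), the E-box CACGTG that contains it (7.26%), the cyclic AMP response element TGACGTCA (1.85%), CCAAT and CCACG spaced by 9 bases as in the endoplasmic reticulum stress element (0.0769%), and the p53 motif of 1 dimer (6.63%). A match is a string of letters and not a shown binding site.

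The untreated libraries held 15.4 M and 18.8 M counted reads and the others 19.3 M to 56.9 M (median 29.4 M). The deposited tables give means over groups, but whole read counts of each library could be recovered from them for 99.5% of genes, among them all 4 hormone genes. The labels' replicate number of a recovered library is unknown, so the libraries of a group are named the smaller and the larger by their depth. Levels below are normalised counts, that is reads divided by the library's size factor, and they compare groups for 1 gene but not genes with each other. The libraries of RS lay further apart than those of any other group: 4.45% of genes differed more than 2-fold between them, against 0.307% to 1.94% elsewhere. Fibroblast markers summed to 306877 to 786960 normalised counts over the 26 groups. Markers of other cell types were low, with ranges of 315 to 2692 for epithelium, nearly all of it KRT19 with EPCAM, CDH1 and KRT5 near 0, of 39.9 to 230 for endothelium, of 17.8 to 259 for white blood cells and of 0.926 to 13.1 for hepatocytes. The fibroblast sum was lowest on KCl day 0, against 745251 in untreated cells, and the endothelial sum was highest there. Of the endothelial markers, PECAM1 was called higher on KCl day 0 (log2 fold change 5.71) and VWF had no call (0.92). The endothelial markers CDH5, TIE1 and CLDN5 did not pass the filter. On days 0, 1 and 2 after SDS, fibroblast markers summed to 643677, 394341 and 393334. Of these 9 genes, 7, 6 and 7 were called lower and 1, 0 and 2 higher on these days (median log2 fold changes -0.96, -1.08 and -0.86). On KCl day 0, 6 were called lower and 3 higher (median -0.35). Of all tested genes, 38.3%, 18.8% and 15.1% were called on these SDS days and 48.5% on KCl day 0. The white blood cell sum was 249 on SDS day 16, 249.8 on DXR day 16, 259 on KCl day 8 and 256 in RS, against 29.8 in untreated cells. The part of these markers in the results was not tested. In bulk samples, fewer cells of a type and less RNA per cell cannot be told apart.

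Log2 fold changes and their standard errors against untreated cells are those of the authors' deposited tables, and genes with an adjusted p-value under 0.05 count as called (the deposited p-values, in the form of DESeq2's test, with Benjamini-Hochberg adjustment over the 15479 genes). After SDS, the share of all tested genes called was 38.3% on day 0, 18.8% on day 1, 15.1% on day 2, 10.9% on day 3, 14.9% on day 4, 12.1% on day 6, 11.2% on day 8 and 20.3% on day 16. After KCl it was 48.5% on day 0, 11.9% on day 1, 4.12% on day 2, 9.95% on day 3, 11.5% on day 4, 9.68% on day 6, 31.9% on day 8 and 11.3% on day 16. After DXR it was 26.7% on day 0, 18.6% on day 1, 12.1% on day 2, 11% on day 3, 17.6% on day 4, 23.4% on day 6, 21% on day 8 and 28.7% on day 16. In RS it was 22.3%. Against these shares, GDF15 was called in 20 of 25 comparisons, always higher, STC2 in 12, with 7 higher and 5 lower, and STC1 in 1. All 25 comparisons share the untreated libraries, so they are not 25 independent results.

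GDF15 rose at the end of all 3 exposures. Untreated libraries held 1069 and 1171 normalised counts (mean 1120.1 ± 71.7, SD, n = 2, as for all means below). On day 0 the levels were 18093 and 20264 after SDS, 19470.2 and 12696 after DXR and 6018 and 6125 after KCl, each above both untreated libraries. These levels lay 17.1-fold above untreated after SDS (log2 fold change 4.10, standard error 0.11), 14.3-fold after DXR (3.84, standard error 0.17) and 5.41-fold after KCl (2.44, standard error 0.10). The adjusted p was 4.52e-108 after DXR and 1.01e-132 after KCl and was listed as 0 after SDS. The DXR libraries differed most between themselves, with the larger library at the lower level.

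The courses after day 0 differed. After SDS, GDF15 was back near the untreated level by day 1, with libraries at 1224 and 1008 on either side of the untreated ones. On day 2 it stood at 979 and 1068, the latter just below the lower untreated library at 1069. GDF15 was called on neither day (adjusted p = 0.982 and 0.621). It was then called higher on days 3, 4, 6 and 8, by 0.42, 0.78, 0.87 and 0.47 on the log2 scale, and on day 16 it stood at 1580.2 and 1377 with no call (0.40, adjusted p = 0.0774). The mean levels after SDS were 1497 ± 6.13 on day 3, 1927 ± 78 on day 4, 2048 ± 369.7 on day 6, 1553 ± 44.8 on day 8 and 1479 ± 144 on day 16. The calls on days 3 and 8 were the least stable of these: with limma on the recovered counts day 3 was not called, and day 8 lost its call when any library of the comparison was left out.

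After KCl, GDF15 stayed above both untreated libraries on every day, with mean levels of 2655 ± 166 on day 1, 2106 ± 6.68 on day 2, 1982 ± 47.6 on day 3, 1801 ± 36.8 on day 4, 1964 ± 143 on day 6, 1733 ± 4.41 on day 8 and 1376 ± 35.5 on day 16. It was called on days 0 to 8, and the log2 fold change was 1.24 on day 1 and 0.63 on day 8. Day 16 had no call (0.30, adjusted p = 0.114), and the day 4 call was lost in limma without the smaller untreated library. After DXR, it was called on all 8 days. The mean levels were 3879 ± 86 on day 1, 3449.9 ± 19.5 on day 2, 2854 ± 16 on day 3, 2783 ± 269 on day 4, 2942 ± 366 on day 6, 2459 ± 161 on day 8 and 2117 ± 307 on day 16, and the day 16 libraries held 2334 and 1899 (log2 fold change 0.92, 1.89-fold, adjusted p = 3.03e-08). In RS the libraries held 979 and 1317, 1 below and 1 above both untreated libraries, with no call (log2 fold change 0.04, 95% interval -0.40 to 0.47). Ordered by mean level, SDS and DXR on day 0 came first with overlapping libraries, followed by KCl day 0, DXR day 1 and DXR day 2, whose libraries did not overlap with the next. In the whole order, 15 of 25 pairs of neighbours overlapped.

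**Figure D1:**
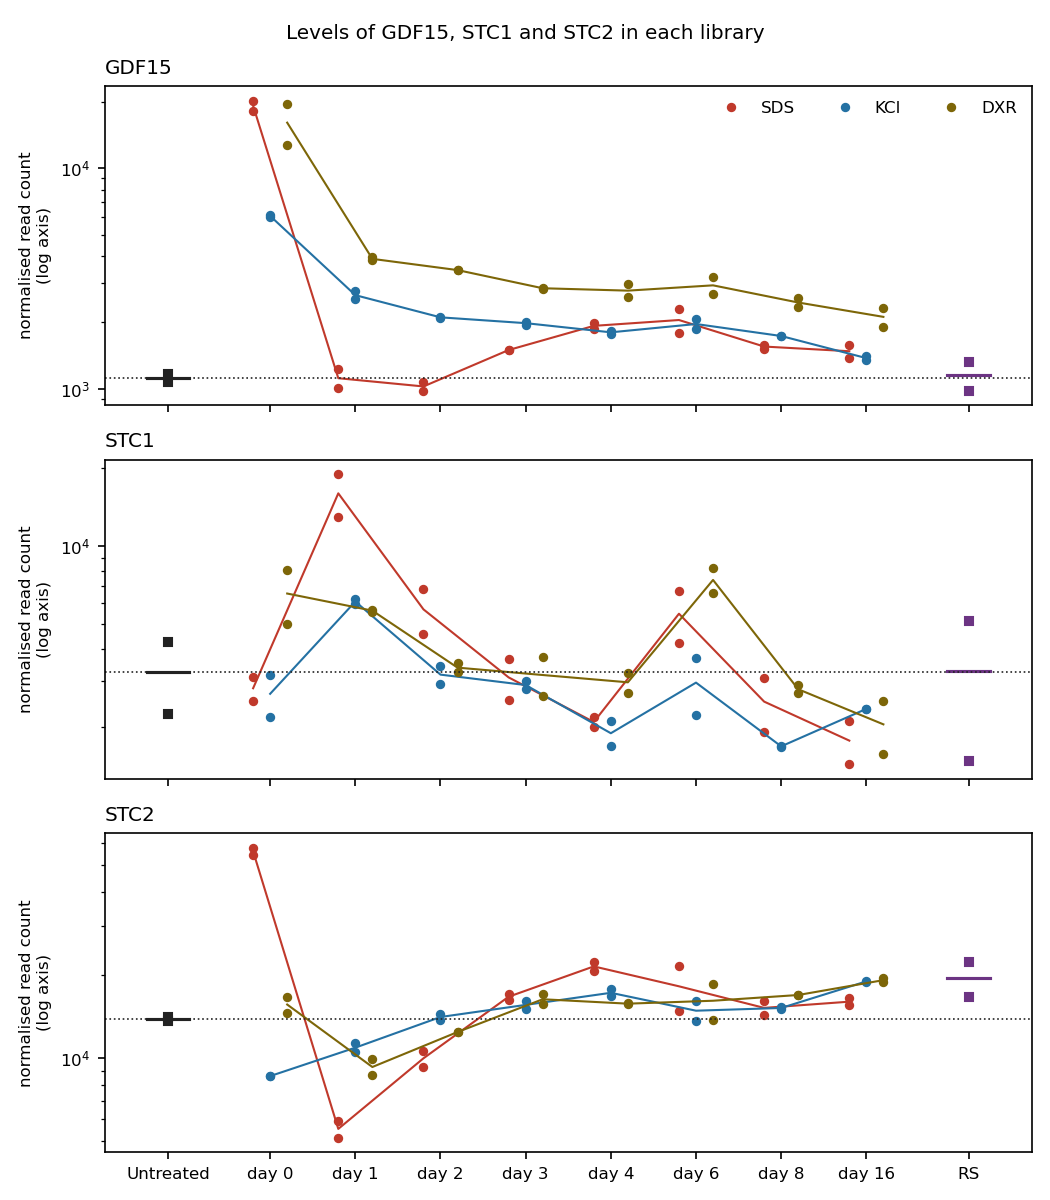
Normalised counts (log axis) of GDF15, STC1 and STC2 in each library against the day after exposure (evenly spaced, not to scale), by inducer, with RS and untreated libraries beside them and lines through the means. GDF15 is highest on day 0 of each course, at up to 20264 against 1069 and 1171 in untreated cells, while STC2 after SDS runs from 56157 ± 2475 on day 0 to 5535 ± 568 on day 1.

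STC2 moved in opposite directions on day 0. Untreated libraries held 14116 and 13603 normalised counts (13859.7 ± 363). After SDS they held 54407 and 57907, 4.05-fold above untreated (log2 fold change 2.02, standard error 0.09, adjusted p = 1.29e-111). After KCl they held 8598 and 8605, which was lower (log2 fold change -0.69, standard error 0.08, adjusted p = 1.63e-18). After DXR they held 16700.0 and 14563, both above untreated but with no call (0.17, adjusted p = 0.249). The SDS libraries of day 0 were the highest of all 26 groups and those of SDS day 1 the lowest.

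On day 1 after SDS, STC2 had dropped to 5134 and 5937, below both untreated libraries (log2 fold change -1.32, adjusted p = 1.89e-43). It was still lower on day 2 (-0.47), then called higher on day 3 (0.27) and day 4 (0.63, libraries at 20758 and 22220.3). Later days after SDS had no call, with log2 fold changes of 0.39, 0.13 and 0.21 on days 6, 8 and 16. The mean levels after SDS were 9978 ± 939 on day 2, 16684 ± 570.3 on day 3, 21489 ± 1034 on day 4, 18199 ± 4836 on day 6, 15199.9 ± 1195 on day 8 and 16009 ± 643 on day 16. STC2 thus lay below both untreated libraries on days 1 and 2 and above both from day 3 on.

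After KCl, STC2 was lower on days 0 and 1 and called higher on days 4 and 16. The mean levels were 10907 ± 605 on day 1, 14086 ± 437 on day 2, 15584 ± 754 on day 3, 17239 ± 726 on day 4, 14847 ± 1694 on day 6, 15188 ± 260.2 on day 8 and 18961 ± 60 on day 16, and the day 16 libraries held 19004 and 18919 (log2 fold change 0.45, adjusted p = 4.36e-09). After DXR, STC2 was lower on day 1, at 8667 and 9892 (-0.58, adjusted p = 8.08e-09), and called higher on day 8 (0.29) and day 16 (0.47, adjusted p = 4.97e-05). The mean levels after DXR were 9279 ± 866 on day 1, 12424 ± 4.94 on day 2, 16334 ± 954 on day 3, 15745 ± 78.5 on day 4, 16134 ± 3450.1 on day 6, 16925 ± 24.7 on day 8 and 19160.2 ± 429 on day 16. RS libraries held 22335 and 16708, both above untreated, with a log2 fold change of 0.49 that missed the threshold (adjusted p = 0.0531). It was called there by limma and with the filter at a mean of 100. Without 1 library of that comparison, the limma log2 fold change ranged from 0.27 to 0.69. The small changes were the less stable calls: limma did not call SDS day 3, KCl days 1 and 4 or DXR day 8, and it lost SDS day 2 and KCl day 16 when a library was left out. Of 25 pairs of neighbours in the order of levels, 20 overlapped.

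STC1, the paralogue of STC2, was called in 1 comparison, SDS day 1, on which STC2 was at its lowest. The libraries of that group held 18938 and 12976 normalised counts, against 4251 and 2244 in untreated cells, a 4.91-fold rise (log2 fold change 2.30, standard error 0.53, adjusted p = 0.000191). This rise was also called by limma and in its fits without any library of the comparison, with log2 fold changes from 1.88 to 2.80. A day earlier, at the end of the exposure, the SDS libraries held 2518 and 3122, within the untreated range (-0.20). By day 2 they held 4559.5 and 6814 (0.81, adjusted p = 0.379).

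In the other groups STC1 could not be told from untreated cells by this test. The mean levels were 3105 ± 789.9 on day 3, 2089 ± 122 on day 4, 5471 ± 1763 on day 6, 2504 ± 832 on day 8 and 1770.2 ± 476 on day 16 after SDS, 2684 ± 697 on day 0, 6096 ± 162 on day 1, 3183 ± 355 on day 2, 2901 ± 147 on day 3, 1890.2 ± 295 on day 4, 2965 ± 1040.2 on day 6, 1682 ± 6.69 on day 8 and 2347 ± 7.24 on day 16 after KCl and 6547 ± 2191 on day 0, 5623 ± 69.2 on day 1, 3387 ± 197 on day 2, 3172 ± 764 on day 3, 2973 ± 375 on day 4, 7388 ± 1164 on day 6, 2795 ± 137 on day 8 and 2046 ± 666 on day 16 after DXR. The largest value without a call was DXR day 6, at 6565 and 8211 (1.19, standard error 0.47, adjusted p = 0.0522), which passed the threshold with the authors' own adjusted p-value, with the filter at a mean of 100, with library totals and in limma. In limma DXR day 0 was called too, and both DXR calls were lost without the larger untreated library or without the larger library of the treated group. RS libraries held 1479 and 5109, on either side of the untreated ones (0.02, standard error 0.92).

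The libraries of a group differed more for STC1 than for almost any gene of like level. The SD of its log2 level between the libraries of a group was 0.41, against a median of 0.08 over 2507 genes whose level lay within 1 log2 unit, of which 4 spread more. The same SD was 0.15 for GDF15 and 0.14 for STC2. The untreated libraries rested on 2250 and 1447 reads and the RS libraries on 2249 and 9961, so counting error is small beside these gaps. Between the RS libraries STC1 differed by 1.79 on the log2 scale and 109 of 10748 genes differed more. Between the untreated libraries it differed by 0.92, with the larger library lower, and 95 genes differed more. In 15 of 25 comparisons the libraries of the groups overlapped with the untreated ones, and 22 of 25 neighbours in the order of levels overlapped.

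**Figure D2:**
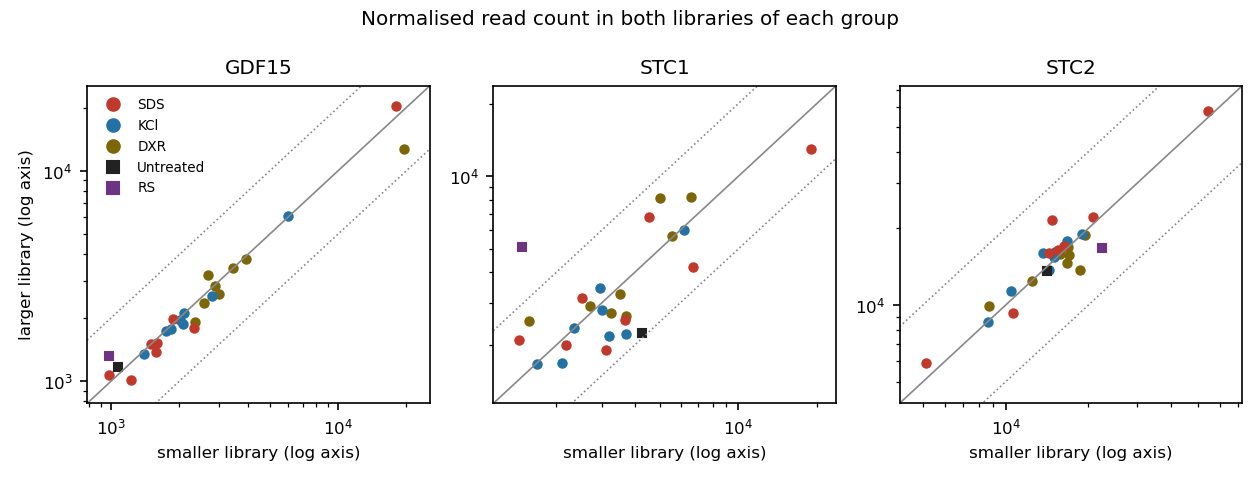
Normalised counts of the larger library against the smaller library of each of the 26 groups, for GDF15, STC1 and STC2 on log axes, with equality as a line and a 2-fold difference dotted. STC1 leaves the 2-fold band in RS, where the libraries lay 3.45-fold apart, while no STC2 pair lay more than 1.46-fold apart.

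FGF21 had reads in 4 of 52 libraries, all of day 0. The libraries of SDS day 0 held 3 and 3 reads and those of KCl day 0 held 5 and 6, which is 3.92 and 3.59 normalised counts after SDS and 4.91 and 3.21 after KCl. The other 48 libraries, those of DXR day 0, RS and untreated cells included, held 0. A count of 0 allows up to 3 reads, which is 1.54 to 5.67 normalised counts depending on the library, and 4.65 and 5.67 in the untreated libraries. The levels on day 0 are of that size, so no fold is given, and these limits cover counting error only. Markers of hepatocytes, the cells for which FGF21 is best known, were near 0 in all groups.

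**Figure D3:**
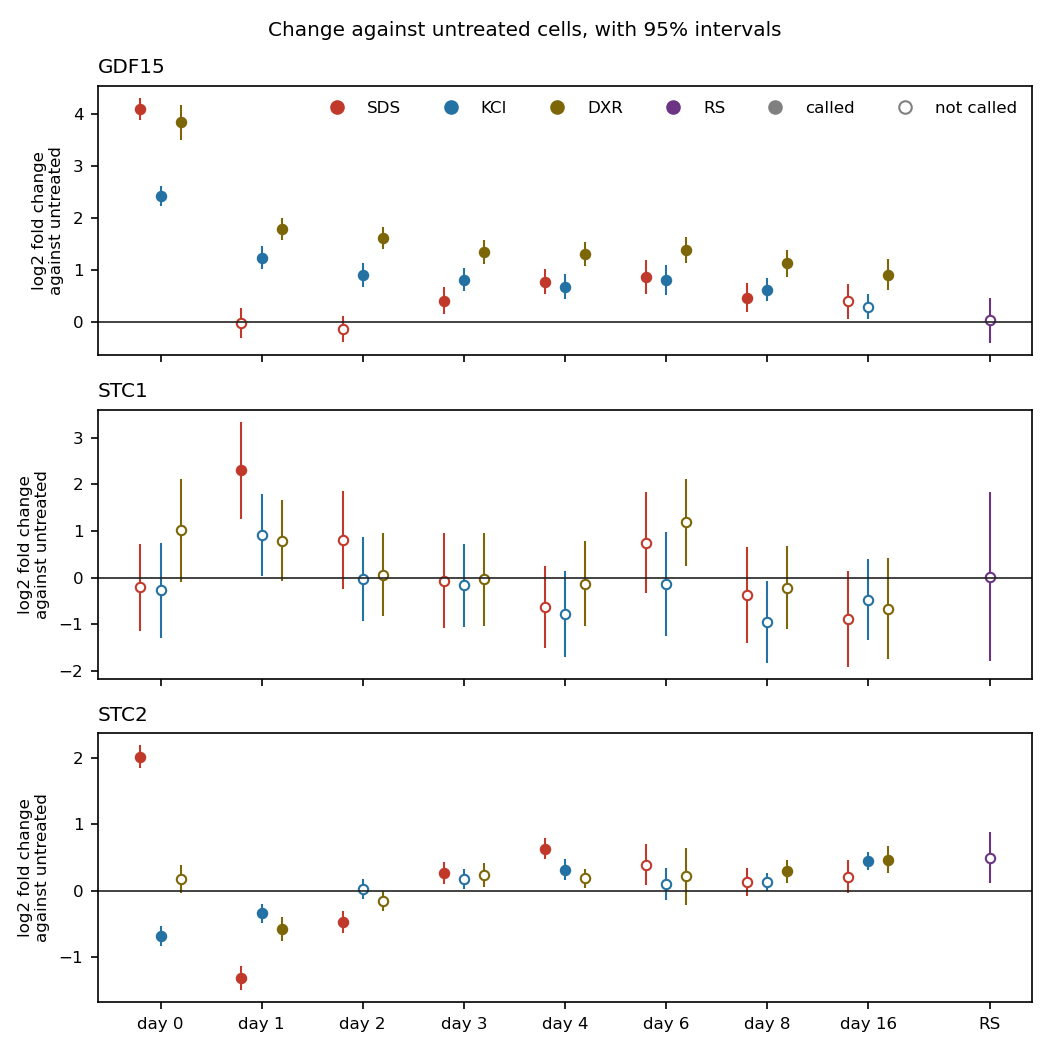
Log2 fold changes against untreated cells, with 95% intervals, of GDF15, STC1 and STC2 in the 25 comparisons, with filled points where the gene was called. GDF15 runs from 4.10 on SDS day 0 to -0.13 on SDS day 2, STC2 from 2.02 to -1.32, and the intervals of STC1 are the widest.

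The inducers were then compared on the same day, as the difference of their log2 fold changes. Both standard errors hold the shared untreated libraries, so this test makes too few calls. Between SDS and KCl, 36.9% on day 0, 4.13% on day 1, 2.26% on day 2, 0.142% on day 3, 0.142% on day 4, 0.0129% on day 6, 3.11% on day 8 and 2.6% on day 16 of all tested genes were called. Between SDS and DXR it was 27.4% on day 0, 11.7% on day 1, 6.91% on day 2, 1.74% on day 3, 0.724% on day 4, 0.594% on day 6, 0.782% on day 8 and 0.187% on day 16. Between KCl and DXR it was 35.5% on day 0, 7.32% on day 1, 3.08% on day 2, 1.47% on day 3, 1.1% on day 4, 0.633% on day 6, 4.65% on day 8 and 6.06% on day 16. Of 24 differences each, GDF15 passed the test in 11, STC2 in 7 and STC1 in 0.

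On day 0 GDF15 was higher after SDS than after KCl by 1.66 (95% interval 1.37 to 1.95) on the log2 scale (adjusted p = 7.7e-28) and lower after KCl than after DXR by a difference of -1.41 (95% interval -1.79 to -1.02). SDS and DXR did not pass the test on day 0, with a difference of 0.25 (95% interval -0.14 to 0.65) and an adjusted p of 0.417. On days 1 and 2, GDF15 was lower after SDS than after either other inducer. The difference from KCl was -1.25 on day 1 and -1.04 on day 2, and the difference from DXR was -1.80, -1.75 and -0.93 on days 1, 2 and 3. KCl was also below DXR on days 1, 2, 4 and 16, by differences of -0.55, -0.71, -0.63 and -0.62. In limma the day 4 difference was called in 1 of 4 fits without a library and lost without either KCl library or the smaller DXR library. The day 16 difference was lost without the smaller DXR library, and missed the threshold with no filter on low values.

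STC2 on day 0 was higher after SDS than after KCl by 2.71 (95% interval 2.48 to 2.94) (adjusted p = 7.88e-116) and than after DXR by 1.85 (95% interval 1.57 to 2.12) (adjusted p = 1.04e-37), and KCl lay below DXR by a difference of -0.86. On day 1 the order of SDS turned: STC2 was lower after SDS than after KCl (-0.98) and than after DXR (-0.74). The difference from KCl was -0.50 on day 2, which limma lost without the larger SDS or the smaller KCl library of that day, and that from DXR was 0.45 on day 4, a call that limma did not make. For STC1 the intervals were wide on day 0, with 0.07 (95% interval -1.30 to 1.44) between SDS and KCl, -1.22 (95% interval -2.65 to 0.22) between SDS and DXR and -1.29 (95% interval -2.78 to 0.21) between KCl and DXR. With limma, which shares 1 spread over all 26 groups, 5 of the 24 STC1 differences passed. In these comparisons limma called 0% to 65.6% of all genes it tested.

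**Figure D4:**
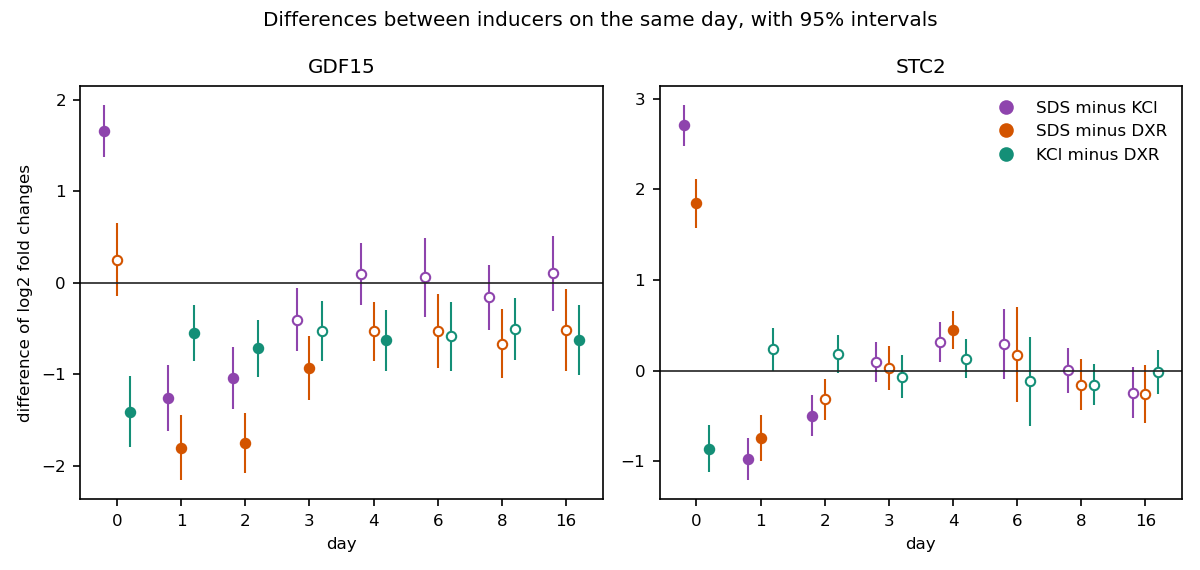
Differences in log2 fold change between pairs of inducers on each day, with 95% intervals, for GDF15 and STC2, with filled points where the difference was called. For STC2 the difference of SDS from KCl runs from 2.71 on day 0 to -0.98 on day 1.

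Steps between consecutive sampled days were tested in the same way, and most calls fell on the first step. After SDS the share of tested genes called was 27.7% from day 0 to 1, 3.48% from day 1 to 2, 0.82% from day 2 to 3, 0.0969% from day 3 to 4, 0.084% from day 4 to 6, 0.0129% from day 6 to 8 and 0.103% from day 8 to 16. After KCl it was 34.9% from day 0 to 1, 1.63% from day 1 to 2, 0.174% from day 2 to 3, 0.155% from day 3 to 4, 0.187% from day 4 to 6, 3.26% from day 6 to 8 and 6.85% from day 8 to 16. After DXR it was 3.35% from day 0 to 1, 0.549% from day 1 to 2, 0.349% from day 2 to 3, 0.0323% from day 3 to 4, 0.646% from day 4 to 6, 0.892% from day 6 to 8 and 0.355% from day 8 to 16. GDF15 passed the test from day 0 to day 1 in all 3 courses and at none of the other 18 steps, with changes of -4.11 after SDS, -1.19 after KCl and -2.05 after DXR on the log2 scale. STC1 passed it at 1 step, from day 0 to day 1 after SDS (2.50 (95% interval 1.11 to 3.90), adjusted p = 0.00258).

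STC2 passed the test at 7 of 21 steps. From day 0 to day 1 it dropped by a change of -3.34 after SDS and -0.75 after DXR, and it rose by 0.34 after KCl. It then rose after SDS by 0.85 from day 1 to 2 and 0.74 from day 2 to 3, and after KCl by 0.37 from day 1 to 2 and 0.32 from day 8 to 16. The last pair was not called by limma, which also lost the first KCl step and the SDS step from day 2 to 3 when some libraries were left out. On the first step after SDS, STC1 and STC2 thus passed the test in opposite directions.

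Day 16 of each course was compared with RS, where 0.659% of tested genes were called for SDS, 4.06% for KCl and 0.142% for DXR. None of the 3 hormones passed this test in any course, with 9 differences tested. The GDF15 difference from RS was 0.88 (95% interval 0.35 to 1.41) after DXR (adjusted p = 0.31), 0.36 (95% interval -0.18 to 0.91) after SDS and 0.26 (95% interval -0.24 to 0.76) after KCl. Limma called the DXR difference, with 5.92% of all genes it tested called in that comparison. For GDF15 both DXR libraries (2334 and 1899) lay above both RS libraries (979 and 1317). STC2 differed from RS by -0.29 (95% interval -0.74 to 0.17) after SDS, -0.04 (95% interval -0.45 to 0.37) after KCl and -0.03 (95% interval -0.46 to 0.41) after DXR. STC1 differed from RS by -0.90 (95% interval -2.97 to 1.18) after SDS, -0.49 (95% interval -2.49 to 1.52) after KCl and -0.69 (95% interval -2.79 to 1.42) after DXR, with both RS libraries far apart.

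Genes of the pathways that are known to drive the 4 hormones were counted on day 0, beside medians of all tested genes between -0.03 and 0.02 on the log2 scale, with 38.3% of all genes called after SDS, 48.5% after KCl and 26.7% after DXR. After SDS, the integrated stress response had 19 higher and 1 lower of 21 (median 2.10). ATF4 itself, its central transcription factor, stood at 1.59 (standard error 0.09), and its targets ADM2, TRIB3 and DDIT3 at 4.55, 4.27 and 3.73, all called. EIF2AK3, the kinase PERK, rose by 2.04. Genes of endoplasmic reticulum stress had 12 higher and 0 lower of 13 (median 1.25), led by HERPUD1, a degradation factor, at 3.57, the co-chaperone DNAJB9 at 3.36 and the chaperone HSPA5 at 2.85. The p53 targets were split, with 6 higher and 6 lower of 16 (median 0.17). The hypoxia genes had 6 higher and 2 lower of 10 (median 0.60), with ANGPTL4 at 3.96, VEGFA at 1.91 and ADM at -1.24.

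On day 0 after KCl, the integrated stress response had 18 higher and 2 lower of 21 (median 0.87), ATF4 at 1.37 (standard error 0.09), ATF3 at 2.15 and ASNS, asparagine synthetase, at 2.13. Genes of endoplasmic reticulum stress had 3 higher and 7 lower of 13 (median -0.44), and HSPA5 stood at -1.08, CRELD2 at -1.71, PDIA4 at -1.48 and MANF at -1.42, all lower. STC2 was lower in the same libraries and GDF15 higher. The p53 targets had 8 higher and 3 lower of 16 (median 0.17) and the hypoxia genes 7 higher and 2 lower of 10 (median 0.76), on a day with 48.5% of all tested genes called. These lists were not tested as sets.

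After DXR, the p53 targets had 15 higher and 0 lower of 16 (median 1.55), with TP53INP1 at 2.51, the mitochondrial reductase FDXR at 2.35 and the antiproliferative gene BTG2 at 2.11. The integrated stress response had 6 higher and 4 lower of 21 (median 0.07), with ATF4 lower at -0.55 (standard error 0.11) and ATF3 higher at 1.09. Of 13 genes of endoplasmic reticulum stress, 2 were higher and 3 lower, and the hypoxia genes had 4 higher and 1 lower of 10 (median 0.25). GDF15 was thus called higher beside rising ATF4 after SDS and KCl and beside falling ATF4 and rising p53 targets after DXR. The p53 targets had 6 higher and 6 lower of 16 on SDS day 0, and 8 higher and 3 lower on KCl day 0. STC2 was called higher after SDS, where 12 of 13 genes of endoplasmic reticulum stress were higher, and lower after KCl, where 7 of 13 were lower. On KCl day 0, 18 of 21 genes of the integrated stress response were higher while STC2 was lower. On DXR day 0, ATF4 was lower and STC2 had no call. Whether any of these pathways drove the hormones here was not tested.

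**Figure D5:**
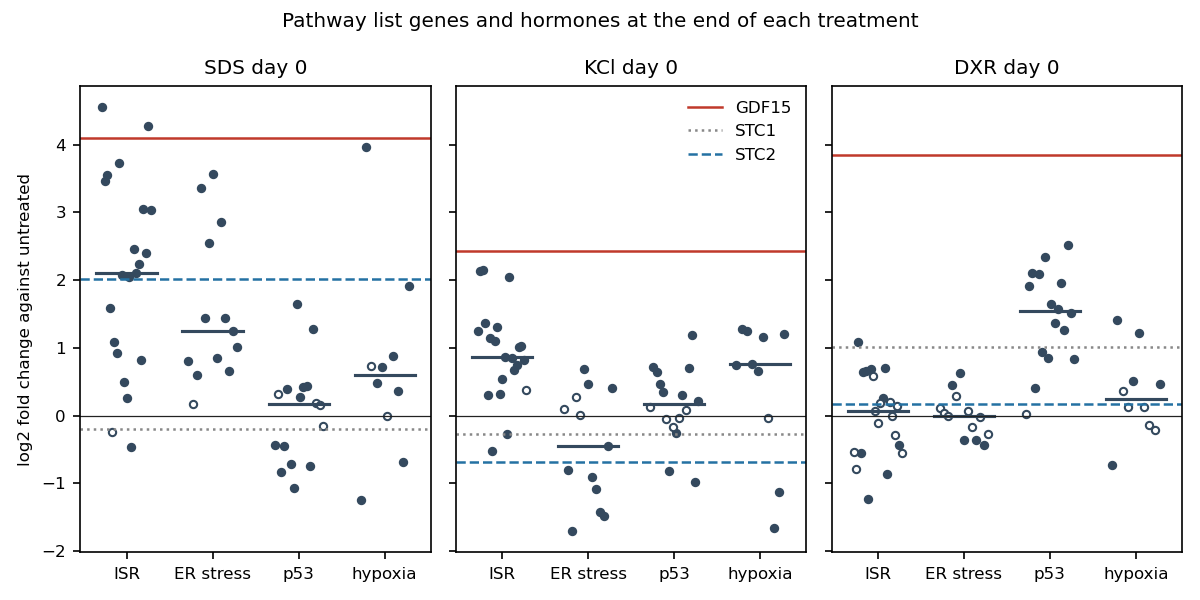
Log2 fold changes on day 0 of the genes of 4 lists after SDS, KCl and DXR, 1 point a gene (filled where called), with short bars at list medians and long lines at GDF15, STC1 and STC2. ISR is the integrated stress response and ER the endoplasmic reticulum. The list medians after SDS are 2.10 for the integrated stress response and 0.17 for p53 targets, and after DXR 0.07 and 1.55.

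On SDS day 1, when STC2 stood below untreated cells, the integrated stress response had 0 higher and 9 lower of 21 (median -0.36), with ATF4 at -1.04, ADM2 at -2.29 and DDIT3 at -1.48. Genes of endoplasmic reticulum stress had 0 higher and 9 lower of 13 (median -0.62), with HSPA5 at -1.42 and the factor XBP1 at -1.27. Of all tested genes, 18.8% were called on SDS day 1. The hypoxia genes, examined because STC1 is a HIF-1 target and rose on that day, had 2 higher and 3 lower of 10 (median 0.12), with ANGPTL4 at 2.34, the glucose transporter SLC2A1 at -1.16 and ADM at -0.99. Through the later SDS course the p53 targets had 0 called lower of 16. They had 7, 6, 12, 8 and 8 called higher on days 2, 3, 4, 6 and 8. Of all tested genes, 15.1%, 10.9%, 14.9%, 12.1% and 11.2% were called on these days. GDF15 was called higher on these days except day 2, when it had no call (log2 fold change -0.13).

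On day 16 the p53 targets had 6 higher and 0 lower of 16 (median 0.38) after SDS, 4 higher and 0 lower of 16 (median 0.18) after KCl and 11 higher and 0 lower of 16 (median 0.45) after DXR, against 4 higher and 1 lower of 16 (median 0.25) in RS. Of all tested genes, 20.3%, 11.3%, 28.7% and 22.3% were called in these 4 groups. CDKN1A, the p21 inhibitor of the cell cycle, was called in all 4, at 0.70, 0.55, 0.91 and 0.64. In the same groups GDF15 was called after DXR alone. Genes of endoplasmic reticulum stress had 0 higher and 5 lower of 13 (median -0.44) after SDS, 0 higher and 6 lower of 13 (median -0.27) after KCl, 2 higher and 7 lower of 13 (median -0.52) after DXR and 1 higher and 7 lower of 13 (median -0.52) in RS, while STC2 was called higher after KCl and DXR.

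The partners of the hormones were measured in the same libraries. GFRAL, the GDF15 receptor, had at most 3 reads in a library and 0 in 38 of 52, and its co-receptor RET had 4 to 50 reads and was called in no comparison. KLB, the FGF21 co-receptor, had 0 to 18 reads and was not tested. FGFR1 was lower on day 0 after all 3 exposures, at -0.79 after SDS, -0.54 after KCl and -0.50 after DXR. GFRAL and KLB were thus at or near the limit of detection in these cells.

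PAPPA, the protease that both stanniocalcins inhibit, rose on day 0 after every exposure, by 1.51 (standard error 0.12) after SDS, 0.85 (standard error 0.11) after KCl and 2.29 (standard error 0.14) after DXR on the log2 scale. It was also higher on day 16, at 1.15 after SDS, 0.96 after KCl and 1.65 after DXR, and in RS at 1.80. PAPPA2 rose by 5.85 (standard error 0.58) on SDS day 0 and by 4.01 on day 1, and was higher on day 16 after SDS (2.36) and DXR (3.48) and in RS (3.62). Its untreated libraries held 4 reads each, against 288 and 342 on SDS day 0. IGFBP4, a substrate of PAPPA, was lower on day 0 after SDS (-1.15) and KCl (-1.0) and higher after DXR (0.84). On day 16 it was higher after SDS and DXR, by 0.89 in each, and in RS by 0.82. IGFBP5 was lower on day 0 after SDS (-2.33) and DXR (-0.78) and had no call after KCl (0.48). Of the 10 tested genes of this list, 2 were higher and 4 lower on SDS day 0 (38.3% of all tested genes called), 2 and 2 on KCl day 0 (48.5%), and 3 and 2 on DXR day 0 (26.7%).

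As a description of shape, the level of each hormone, as log2 with 1 added, over the 26 groups was correlated with that of 10950 genes with a mean of at least 100. The points share the untreated libraries and the size factors, and no p is given. Closest to GDF15 were MON2 (0.91), MKNK2 (0.90) and DUSP11 (0.90), to STC1 CHST11 (0.93), ITGA2 (0.89) and FRMD8 (0.89), and to STC2 SLC37A3 (0.90), DPY19L3 (0.88) and SEC22B (0.88). Among the hormones themselves Pearson's r was 0.36 between GDF15 and STC2, 0.08 between GDF15 and STC1 and -0.52 between STC1 and STC2.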

How the data were processed

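Bulk mRNA of WI-38 cells was sequenced in 26 groups of 2 libraries. The labels' processing notes name Trim Galore, HISAT2, HTSeq, featureCounts and DESeq2 with GRCh38, without roles, and the gene identifiers are those of GENCODE 29. The 52 files hold 25 distinct tables, each of 1 treated group or RS against the untreated group. For each gene the authors deposited a mean of normalised counts over the 4 libraries, which is taken as a signal with no value below 0. The other deposited columns are the log2 fold change, its standard error on the same log2 scale, the score that divides the former by the latter, and the raw and adjusted p-value. Other columns of per-sample values numbered 0. Since these values are the authors' own comparisons, the main results below rest on their fits, and the planned test on counts per library became an alternative.

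Each mean is a sum of whole counts times 1 value per library, and that value was read from genes with 1 read in 1 library. Whole counts that explain the mean, with a log2 fold change within 5e-05 where this was needed, were recovered in all 52 libraries for 46034 of 46275 genes above 0, and genes without them hold 23.4% to 28.8% of the reads of a library. Size factors of the tables were put on 1 scale by the untreated level of 8645 genes above 200 in every table. Of all genes, 15479 with a mean of at least 10 over the groups were tested, with calls at an adjusted p-value under 0.05 (Benjamini-Hochberg within each table). Differences between inducers, days and RS were taken between log2 fold changes, with a normal p after adding the squared standard errors and taking the root. Alternatives were a filter at a mean of 100, no filter, library totals, a log2 fold change of at least 1, the authors' adjusted p-value, another set of genes for the scale, and limma 3.58.1 (R 4.3.3, voom weights, log2 with 0.5 added, 26 groups in 1 fit, 15248 genes) with each library left out in turn, where the lone library is assumed to vary like the other groups. Other steps ran in Python 3.11.15 with SciPy 1.17.1, Numba 0.67.0, pandas 2.3.3 and NumPy 2.4.6, and the scripts were tested on simulated data.

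The 4 hormone genes and the lists of pathway, partner and marker genes, written from general knowledge, were chosen with earlier results of these data known. Genes named are the hormones, their receptors, partners and known regulators, and per list at most 3 of the called genes with the largest change in a comparison described. CDKN1A on day 16 and HSPA5 after KCl were added after their values were seen. No promoter of STC1 is shown.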

Additional observations from a re-analysis of the deposited data

Results flagged for a closer look

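The differences below were flagged because a test of the difference itself, between inducers on 1 day or between days of 1 inducer, passed an adjusted p of 0.05. All are log2 values, and each has its interval or its libraries in the report.

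Between SDS and KCl, GDF15 differed by 1.66 on day 0, -1.25 on day 1 and -1.04 on day 2, and STC2 by 2.71, -0.98 and -0.50 on the same days. Between SDS and DXR, GDF15 differed by -1.80, -1.75 and -0.93 on days 1, 2 and 3, and STC2 by 1.85 on day 0, -0.74 on day 1 and 0.45 on day 4. Between KCl and DXR, GDF15 differed by -1.41 on day 0, -0.55 on day 1, -0.71 on day 2, -0.63 on day 4 and -0.62 on day 16, and STC2 by -0.86 on day 0.

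From day 0 to day 1, GDF15 changed by -4.11 after SDS, -1.19 after KCl and -2.05 after DXR, STC1 by 2.50 after SDS, and STC2 by -3.34 after SDS, 0.34 after KCl and -0.75 after DXR. STC2 also changed after SDS by 0.85 from day 1 to 2 and 0.74 from day 2 to 3, and after KCl by 0.37 from day 1 to 2 and 0.32 from day 8 to 16.

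FGF21 lay outside the tests and was flagged for 5 and 6 reads on KCl day 0, where the untreated libraries had 0. Per depth, these are 4.91 and 3.21 normalised counts, of the same size as the 5.67 and 4.65 that a count of 0 allows in the untreated libraries. On SDS day 0 it had 3 and 3 reads. Groups of 2 libraries were not tested for a library standing apart.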

How the results depend on the processing

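Of 33 calls against untreated cells, 20 of GDF15, 1 of STC1 and 12 of STC2, a log2 fold change of at least 1 left 13, with 10 of GDF15 and 2 of STC2. STC1 had 2 calls with the filter at a mean of 100, with library totals and with the authors' adjusted p-value, and 3 with limma. Limma also called 5 STC1 differences between inducers in place of 0, 5 STC1 steps between days in place of 1, and 1 difference from RS in place of 0, that of GDF15 after DXR. The share of all genes called differed too. It ranged from 0% to 65.6% between inducers in limma, against 0.0129% to 36.9% in the main test. Between days it ranged from 0% to 62.1%, against 0.0129% to 34.9%. For DXR day 16 against RS it was 5.92%, against 0.142%. The other counts of hormone calls stayed within 1.5 times. The fold threshold and the authors' adjusted p-value were applied only to comparisons with untreated cells, not to differences between inducers, days or RS. Leaving out 1 library at a time in limma gave 28 to 40 calls against untreated cells (GDF15 17 to 21, STC1 2 to 9, STC2 7 to 12), 25 to 32 between inducers (GDF15 14 to 19, STC1 3 to 5, STC2 5 to 8), 11 to 20 between days (GDF15 3 to 5, STC1 3 to 8, STC2 4 to 9) and 1 to 4 against RS (GDF15 1 to 3, STC1 0 to 3, STC2 0 to 1). The fewest calls against untreated cells, 28, came without either untreated library, and the most, 40, without the larger RS library, whose removal also gave the 9 of STC1. Of 62 calls of the main test, 45 were called by limma and by all 4 of its fits without a library of the comparison. Signs turned only for values with no call: STC1 in RS from 0.02 to -0.0056 (library totals) and -0.15 (limma), GDF15 on SDS day 1 from -0.01 to 0.044 (library totals), STC1 on KCl day 2 from -0.03 to 0.051 and on DXR day 3 from -0.03 to 0.017 (limma), and STC2 on DXR day 16 against RS from -0.03 to 0.059 (library totals). Without a library, STC1 in RS ranged from -1.05 to 0.74. Library totals moved the median of all genes by -0.03 to 0.07. The cause of these changes was not tested. No paired analysis was possible because the recovered libraries carry no replicate number. At the depth of each untreated library alone, 15.4 and 18.8 M reads, the levels of FGF21 on SDS and KCl day 0 are of the size that a count of 0 allows.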
